A study of Mus musculus with 6 samples.

Results

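The mitochondrial ribosomal protein genes were taken from the deposited expression table by symbol: every symbol that begins with Mrpl or Mrps followed by a number, which gave 77 of the 21878 genes listed. Of these, 48 carry the Mrpl prefix of the large subunit and 29 the Mrps prefix of the small subunit. HT22, an immortalized mouse hippocampal neuronal cell line, was compared between a control group and a group given 120 µM aluminum maltolate (Al group), with 3 libraries each. Treatment lasted 24 h; the methods list both a medium control and a maltol control and do not state which one was sequenced. All 6 libraries were the input of a methylated RNA immunoprecipitation experiment, so their RNA was fragmented but not enriched for methylated sites. In the labels the groups appear only as the letters C and M, and M was read as the Al group from the way the study names the same comparison. The labels name no batch.

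The mitochondrial ribosome makes the few proteins that mitochondrial DNA encodes, which are core subunits of the respiratory chain and of ATP synthase. Its proteins are encoded in the nucleus, made in the cytosol and imported, and they assemble on RNAs transcribed from mitochondrial DNA. The small subunit reads the codons, and the large subunit forms the peptide bonds and passes the chain to the inner membrane.

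Of the 77 member genes, 30 rose and 6 fell under Al, while 41 were not called, 10 of them for the size of the change alone. The median log2 fold change over the 77 was 0.37, beside 0.03 over all 12889 tested genes. Among all tested genes 25.5% were called higher and 23.7% lower, beside 39.0% and 7.79% of the members. The counts moved with the scaling between libraries, for the members as for the table as a whole. On FPKM as deposited 9 members were called higher and 20 lower (11.7% and 26.0%, beside 13.5% and 41.3% of all tested genes), and on values scaled to the same sum 3 and 30 (3.90% and 39.0%, beside 8.85% and 52.2%). The median of the members stayed 0.31 to 0.34 above that of all tested genes on these 3 scales. The 3 genes that led the increase and all 6 that fell were called under each scaling. These 3 were Mrpl46, Mrpl50 and Mrps7, and the largest decreases were in Mrpl2 and Mrpl15. A gene was called where the adjusted P of limma was under 0.05 and the absolute log2 fold change was over 0.58. In limma a linear model is fitted to each gene and its variance is moderated. The Benjamini-Hochberg adjustment covered all tested genes. Values are scaled FPKM, the deposited FPKM (fragments counted per length of the gene and depth of the library) divided by a size factor of each library. In bulk libraries, fewer cells of a kind and less RNA per cell cannot be told apart.

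**Figure D1:**
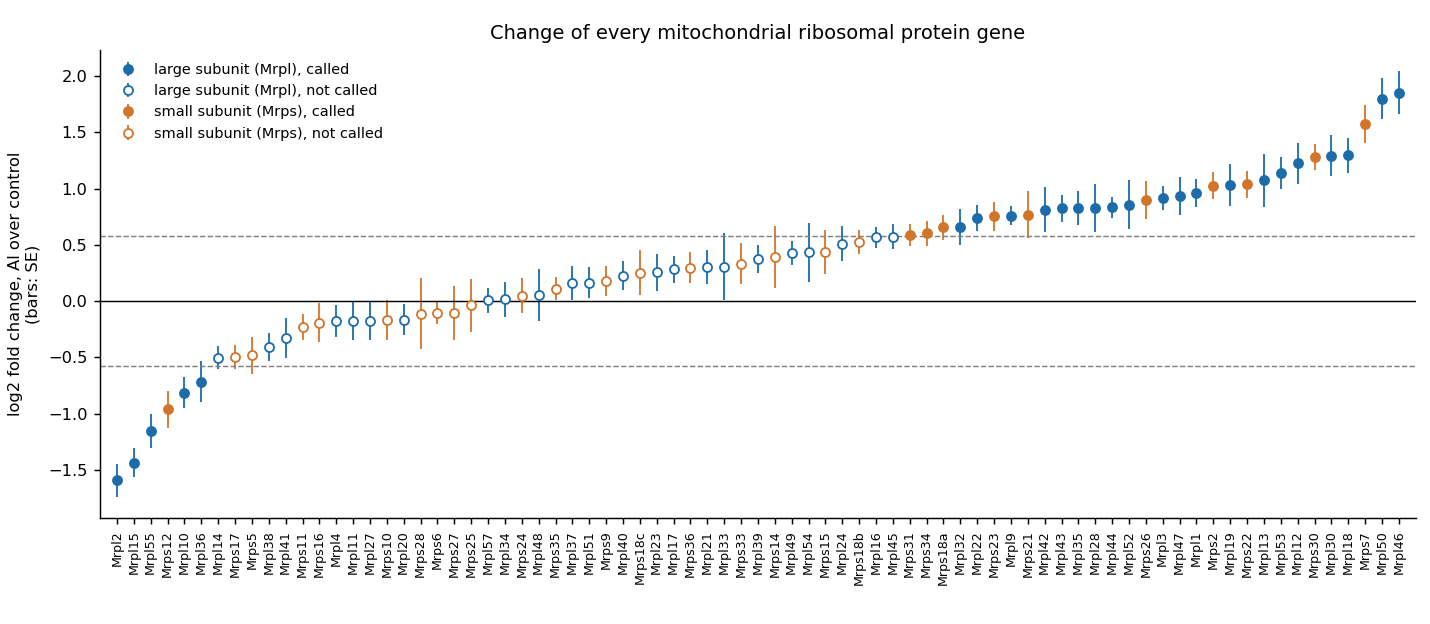
Log2 fold change of scaled FPKM, Al over control, for each of the 77 member genes in order, with bars for the standard error; blue marks the large subunit, orange the small subunit, filled points are called and dashed lines mark 0.58 in either direction. The values run from -1.59 in Mrpl2 to 1.85 in Mrpl46, with 30 filled points above and 6 below.

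Every member was above 0 in all 6 libraries, with 84 to 5972 whole reads behind a value, as recovered from the steps of the FPKM. The library totals behind the FPKM were 38059492 to 44556768 reads in the control group and 21125631 to 26670978 in the Al group. The 50 most abundant genes of a library held 18.7% ± 0.70 of the summed FPKM in control and 31.5% ± 1.34 under Al (SD, n = 3 each). The size factors were 1.17 to 1.21 in control and 0.802 to 0.932 under Al, and without them the median over the tested genes was -0.43 on the log2 scale. For this reason the members were also set relative to each other: each library was divided by the geometric mean of its 77 members, so that no scaling between libraries enters. Of 12 neuronal markers, 2 (Tubb3 and Eno2) reached 1 FPKM, their list summing to 7.74 to 9.5 FPKM in control and 4.2 to 7.54 under Al, and Snap25 and Nefm were at 0 in all libraries. All 4 fibroblast markers reached 1 FPKM, with sums of 2444 to 3986 in control and 2923 to 4113 under Al. Of the 4 astrocyte markers 1 did, Slc1a3, with Aqp4 at 0 and list sums of 13.9 to 23.0 and 1.51 to 2.61. No oligodendrocyte or microglia marker did, and of the 4 hippocampal ones only Zbtb20 did, with list sums of 5.3 to 7.51 in control and 1.43 to 2.23 under Al. Of the 15 markers that were tested, 5 were called. Slc1a3 (-2.96), Zbtb20 (-1.35) and Camk2a (-1.51) were lower, while Col1a1, a fibroblast collagen (0.92, and 0.13 on values scaled to the same sum), and the microglial receptor gene Cx3cr1 (2.14, under 1 FPKM in all libraries) were higher. The part of these markers in the changes of the members was not tested.

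The start regions of 4 genes are shown first: those of the largest 2 increases, and those of the 2 decreases with a divergent neighbour that was called as well. Windows run from 250 bases before to 50 bases after the annotated start, in the direction of the gene, from RefSeq on GRCm38.p6, and capitals mark matches to the motifs searched on both strands: GCGCANGCG (NRF1), CCGGAAG (ETS factors such as GABPA), AAGATGG (YY1) and GGGCGG (SP1). Mrpl46 and Mrpl50 rose, and Mrpl2 and Mrps12 fell. The window of Mrpl46 is chr7:78783040-78783339, minus strand, and its capitals are an SP1 match. That of Mrpl50 is chr4:49521034-49521333, minus strand, with no match. That of Mrpl2 is the first of 3 in the table, chr17:46645971-46646270, plus strand, with SP1 matches on both strands. That of Mrps12 is chr7:28741772-28742071, minus strand, with YY1, SP1 and ETS matches in that order.
Mrpl46: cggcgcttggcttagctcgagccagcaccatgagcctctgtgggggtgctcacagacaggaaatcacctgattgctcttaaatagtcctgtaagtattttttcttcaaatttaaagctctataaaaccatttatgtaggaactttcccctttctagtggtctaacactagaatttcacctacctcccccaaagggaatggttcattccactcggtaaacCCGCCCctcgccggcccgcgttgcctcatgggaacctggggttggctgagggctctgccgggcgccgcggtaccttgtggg
Mrpl50: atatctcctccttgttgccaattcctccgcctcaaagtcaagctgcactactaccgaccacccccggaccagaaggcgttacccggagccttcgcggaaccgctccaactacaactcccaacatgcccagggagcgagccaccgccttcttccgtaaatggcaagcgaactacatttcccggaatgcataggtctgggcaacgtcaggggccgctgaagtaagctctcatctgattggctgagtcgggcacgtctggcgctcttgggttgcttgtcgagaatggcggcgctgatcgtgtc
Mrpl2: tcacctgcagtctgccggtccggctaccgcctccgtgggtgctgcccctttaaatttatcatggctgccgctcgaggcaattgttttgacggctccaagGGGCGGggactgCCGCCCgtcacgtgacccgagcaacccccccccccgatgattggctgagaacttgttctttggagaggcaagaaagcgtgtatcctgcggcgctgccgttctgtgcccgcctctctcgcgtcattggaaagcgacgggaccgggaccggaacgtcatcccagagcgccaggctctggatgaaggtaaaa
Mrps12: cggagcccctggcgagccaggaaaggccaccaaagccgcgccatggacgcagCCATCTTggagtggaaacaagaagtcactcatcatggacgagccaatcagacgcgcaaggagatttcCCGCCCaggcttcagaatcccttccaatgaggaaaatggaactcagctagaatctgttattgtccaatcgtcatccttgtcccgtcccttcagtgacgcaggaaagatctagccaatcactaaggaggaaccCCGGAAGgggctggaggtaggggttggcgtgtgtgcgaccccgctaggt

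NRF1, a transcription factor long known for genes of the respiratory chain, is the motif most often discussed for this gene group, so its matches are printed for the called members. Of the 68 members in the RefSeq table, 16 (23.5%) held an NRF1 match, beside 7.03% of all genes of the table and 14.9% of the tested genes in it. The 9 called members among them are shown with 10 bases on each side of the first match, which stands in capitals. In Mrpl32, Mrpl9 and Mrps26 a further match overlaps the first and runs on into the lower-case bases. Only Mrpl10 of these was called lower. The sites lie at chr11:97041437-97041465 (Mrpl10, plus), chr11:120484547-120484575 (Mrpl12, plus), chr11:58171621-58171649 (Mrpl22, plus), chr1:37890365-37890393 (Mrpl30, plus), chr13:14613106-14613134 (Mrpl32, minus), chr1:79775973-79776001 (Mrpl44, plus), chr3:94443298-94443326 (Mrpl9, plus), chr3:95871586-95871614 (Mrps21, minus) and chr2:130563745-130563773 (Mrps26, plus).
Mrpl10: cccagctccaCGCATGCGCatagcggccc
Mrpl12: attgtctccgCGCCTGCGCgtcgcaccgc
Mrpl22: gcctcggactGCGCATGCGtatagtcagc
Mrpl30: cttccaggaaGCGCACGCGtgacgccgct
Mrpl32: tttgacccttGCGCATGCGcaagaggggc
Mrpl44: agaagcacttGCGCACGCGcagtacacta
Mrpl9: aggcgcagctGCGCATGCGcggggtcctt
Mrps21: gaaagtccagCGCCTGCGCtcagcaccga
Mrps26: tccgggccggGCGCAGGCGcaggcgctgg

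The ETS motif stood in 36.8% of the 68 members (9.93% of all genes of the table, 19.7% of the tested genes), and the YY1 motif in 19.1% (7.28% and 8.52%). The SP1 motif stood in 34 of the 68, a share above the 38.2% of all genes and below the 66.8% of the tested genes. The median log2 fold change was 0.62 in the 16 members with an NRF1 match and 0.30 in the other members of the table, and it was 0.33 with and 0.40 without an ETS match. For YY1 the medians were 0.43 and 0.37, and for SP1 0.25 and 0.62. A match is a run of letters in this window and does not show that a factor binds there.

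The 6 members that fell came from both subunits, 5 of the large and 1 of the small. Mrpl2, a core protein beside the site where peptide bonds form, stood at 40.2, 43.6 and 43.7 scaled FPKM in the control libraries and at 14.9, 16.5 and 11.2 under Al. Its log2 fold change was -1.59 (SE 0.14, adjusted P = 3.81e-05 in limma), a 3.02-fold lower level, and the groups lay far apart. Mrpl15, another protein of the large subunit that bacteria share, stood at 7.36, 7.03 and 7.27 against 2.35, 2.72 and 2.76, with a log2 fold change of -1.43 (SE 0.13, adjusted P = 3.56e-05). The spread within either group was small beside the gap between them. The length behind the FPKM of Mrpl15 was 7204 bases, while the longest coding transcript in GENCODE M21 has 4203, so its level per length may be set too low against other members, although its fold change is not touched by this.

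Mrpl55, which only mitochondria have, held 11.6, 13.9 and 14.7 scaled FPKM in control and 4.90, 6.65 and 6.41 under Al, a log2 fold change of -1.16 (SE 0.15, adjusted P = 0.000249). The highest Al library lay well below the lowest control library. Mrps12, the protein of the decoding centre, held 11, 14.2 and 11.6 against 5.04, 7.35 and 6.45, a log2 fold change of -0.96 (SE 0.16, adjusted P = 0.000987). It was the only member of the small subunit called lower, and it rested on 84 to 102 reads in the Al libraries and 386 to 579 in the control libraries.

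Mrpl10, the base of the flexible stalk that calls translation factors to the ribosome, held 23.8, 23.9 and 25.4 scaled FPKM in control and 14.0, 16.5 and 11.4 under Al, a log2 fold change of -0.81 (SE 0.14, adjusted P = 0.00094). The gene overlaps by 240 exon bases with Gm11574 on the opposite strand. Mrpl36, one of the smallest proteins of the large subunit, held 15.3, 16.2 and 18.2 against 13.3, 9.53 and 7.94, a log2 fold change of -0.71 (SE 0.18, adjusted P = 0.00763). Here the groups stood closest, at 13.3 and 15.3, and without the Al replicate 3 the value was -0.54 and no longer passed. The strand setting of the authors' counting is not given in the sources used here, so reads of genes that overlap on opposite strands cannot be told apart.

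**Figure D2:**
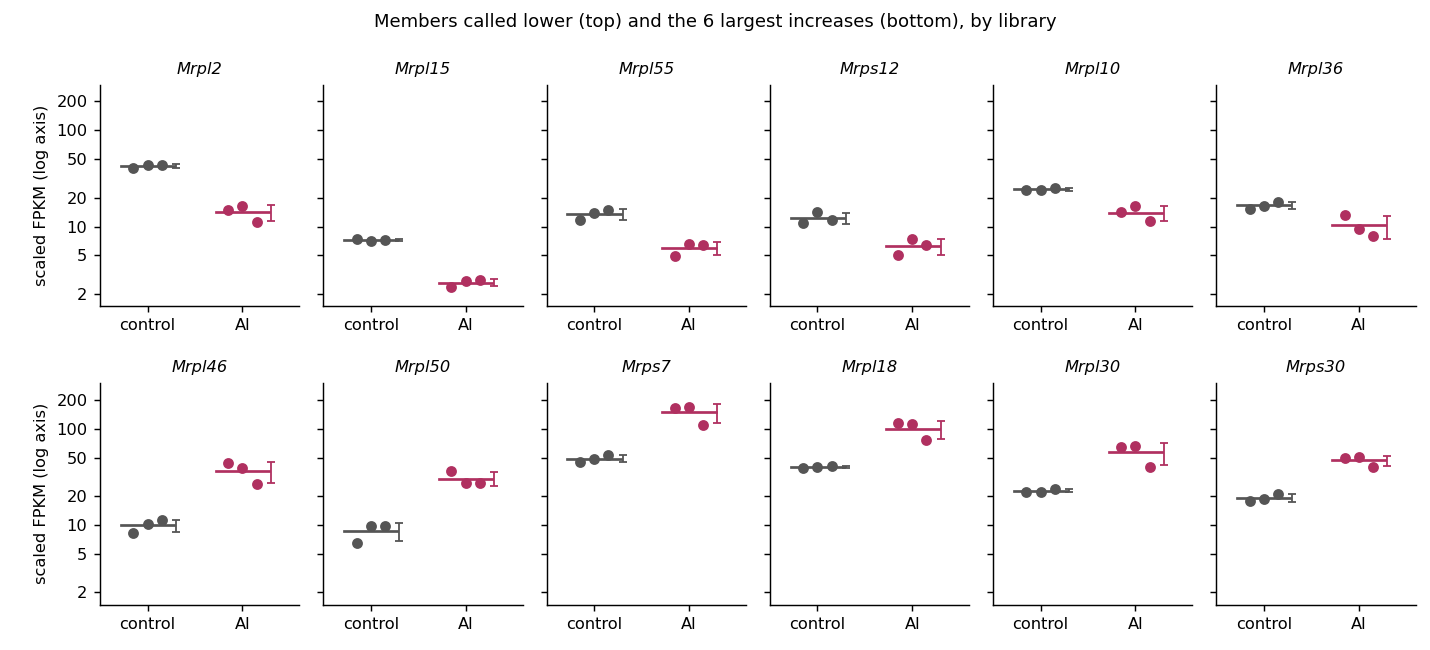
Scaled FPKM in each library on a log axis for the 6 members called lower (top row) and the 6 with the largest increase (bottom row); points are libraries, lines are group means and the bars beside them are SDs (n = 3). In none of the 12 genes do the control and Al points overlap.

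Among the members that rose, the large subunit's Mrpl46 and Mrpl50 came first, and both are proteins that only mitochondria have. Mrpl46, a protein of the central protuberance, where the large subunit meets the head of the small one, went from 8.38, 10.2 and 11.3 scaled FPKM to 44.4, 39.1 and 26.8. The log2 fold change was 1.85 (SE 0.19, adjusted P = 7.16e-05), a 3.61-fold higher level. Mrpl50 went from 6.53, 9.93 and 9.74 to 36.2, 27.6 and 27.4, with a log2 fold change of 1.80 (SE 0.18, adjusted P = 6.41e-05). In both genes the lowest Al library stood above every control library by more than the spread of the controls. Mrps7, which lies in the head of the small subunit where the mRNA leaves, went from 45.3, 48.6 and 53.8 to 166, 171 and 111, with a log2 fold change of 1.58 (SE 0.17, adjusted P = 9.25e-05). By control FPKM it ranked 11 of the 77 members.

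Mrpl18 belongs to the central protuberance and Mrpl30 to the core that bacteria share. Mrpl18 went from 39.3, 40.3 and 41.8 to 115, 113 and 76.4 scaled FPKM (log2 fold change 1.30, SE 0.16, adjusted P = 0.000162 in limma). Mrpl30 went from 22.3, 22.3 and 23.8 to 65.0, 67.2 and 40.3 (log2 fold change 1.29, SE 0.18, adjusted P = 0.000377). The control libraries of both genes differed little among themselves, and in both the Al replicate 3 was the lowest of its group. Mrps30, which carries a small subunit name and sits in the large subunit, went from 18.0, 18.7 and 21.3 to 50.1, 50.7 and 40.7 (log2 fold change 1.28, SE 0.12, adjusted P = 4.43e-05).

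Mrpl12, the stalk protein that Mrpl10 anchors, was the most abundant member. It stood at 91, 116 and 120 scaled FPKM in control and at 285, 289 and 199 under Al (log2 fold change 1.23, SE 0.18, adjusted P = 0.000486), with no overlap. Mrpl53, at the base of the same stalk, stood at 32.3, 33.9 and 34.4 against 91.3, 72.4 and 61.7 (log2 fold change 1.14, SE 0.14, adjusted P = 0.000182); it shares 695 exon bases with Gm42688 on its own strand, which makes its level uncertain. As a description of a pair chosen because Mrpl10 fell while Mrpl12 rose, the ratio of their FPKM was formed within each library, where no scaling enters. The ratio of Mrpl12 to Mrpl10 was 3.82, 4.85 and 4.74 in control and 20.4, 17.5 and 17.4 under Al, a 4.12-fold difference of the means. Mrpl12 shares 200 exon bases with a gene on the opposite strand, as do Mrpl18 (141), Mrps7 (127 with Gga3) and Mrps30 (623).

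Further members of the largest increases reached about a doubling. Mrpl13 stood at 46.6, 50.5 and 54.7 scaled FPKM in control and at 133, 132 and 68.6 under Al (log2 fold change 1.07, SE 0.24, adjusted P = 0.00409), and Mrpl19 at 3.97, 4.65 and 5.26 against 10.7, 11.1 and 7.24 (log2 fold change 1.03, SE 0.19, adjusted P = 0.00139). Both overlap a gene on the opposite strand, Mrpl13 by 330 exon bases with Mtbp and Mrpl19 by 1962 with Gcfc2. Mrps22, a small subunit protein that only mitochondria have, stood at 10.3, 13.1 and 11.9 against 26.3, 24.2 and 22.3 (log2 fold change 1.04, SE 0.12, adjusted P = 0.000119). Mrps2, from the bacterial core of the small subunit, stood at 16.4, 15.7 and 16.6 against 34.6, 37.9 and 28.1 (log2 fold change 1.03, SE 0.12, adjusted P = 0.000143). Neither of these 2 overlaps another gene. The other 18 members called higher ran from Mrpl1 (0.96) to Mrps31 (0.59).

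The most abundant members by mean FPKM over all 6 libraries were Mrpl12, Mrpl28, Mrps21, Mrps7 and Mrpl52. This order includes the Al libraries and so favours members that rose; by control FPKM the leading 5 were Mrpl12, Mrpl28, Mrps6, Mrps21 and Mrpl52, of which Mrps6 was not called (-0.11). Mrpl28 stood at 88.6, 87.6 and 98.8 scaled FPKM in control and at 201, 191 and 112 under Al (log2 fold change 0.83, SE 0.21). Mrps21 stood at 79.6, 79.9 and 83.2 against 153, 179 and 96.2 (0.77, SE 0.21), and Mrpl52 at 63.9, 67.1 and 65.8 against 138, 152 and 79.7 (0.86, SE 0.22). Mrps21 has a near-identical copy, Gm6181. In each of these 3 the Al replicate 3 lay much nearer to the control libraries than its 2 partners did. Relative to the other members, none of the 3 was called, with values of 0.48, 0.42 and 0.51. Their adjusted P in limma was under 0.05, and all 3 missed the fold change threshold.

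That library stood apart over the group as a whole. The median member lay 0.57 and 0.49 above the mean control level on the log2 scale in the Al replicates 1 and 2, and 0.13 above it in replicate 3, while the control libraries lay between -0.075 and 0.089. Without it, 36 members were called higher and 5 lower, with a median of 0.48, beside 26.7% higher, 25.1% lower and a median of 0.02 over the 12809 genes then tested. Over the 77 members, 47 had control and Al libraries that did not overlap, beside 68.1% of all tested genes.

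Set relative to the other members, 14 were called higher and 11 lower, beside 16.1% and 34.6% of all tested genes on that scale. All 6 members called lower on scaled FPKM were among the 11, and Mrpl2 reached -1.94 and Mrpl15 -1.77. The further 5 were Mrpl14 (-0.85), Mrps17 (-0.84), Mrps5 (-0.83), Mrpl38 (-0.75) and Mrpl41 (-0.67). Mrpl14, which faces the small subunit, stood at 25, 26 and 25.7 scaled FPKM in control and 19.1, 19.0 and 16.1 under Al, and Mrps17 at 24.2, 22.6 and 25.7 against 18.8, 16.3 and 16.3. Their groups did not overlap either, yet at -0.50 both missed the fold change threshold on scaled FPKM. On the high side the relative values ran from 1.51 in Mrpl46, 1.46 in Mrpl50 and 1.23 in Mrps7 down to 0.59 in Mrpl47.

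The members were more unequal under Al. The SD of the log2 level over the 77 members was 1.21, 1.20 and 1.21 in the control libraries and 1.48, 1.47 and 1.36 under Al, with no overlap between the groups. The same SD over all tested genes was not taken, so a wider spread is not shown to be particular to the members. The SD of the log2 fold change was 0.69 over the members and 1.02 over all tested genes. Ratios within a library were formed for 2 further pairs, again chosen after the values had been seen. Mrpl3 and Mrpl2 both reach toward the peptidyl transferase centre, and their ratio was 0.564, 0.486 and 0.58 in control and 3.04, 2.73 and 3.61 under Al, a 5.76-fold difference. Mrps7 over Mrps12 went from 4.12, 3.43 and 4.62 to 32.9, 23.3 and 17.2, a 6.03-fold difference. The control and Al ratios did not overlap in either pair.

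**Figure D3:**
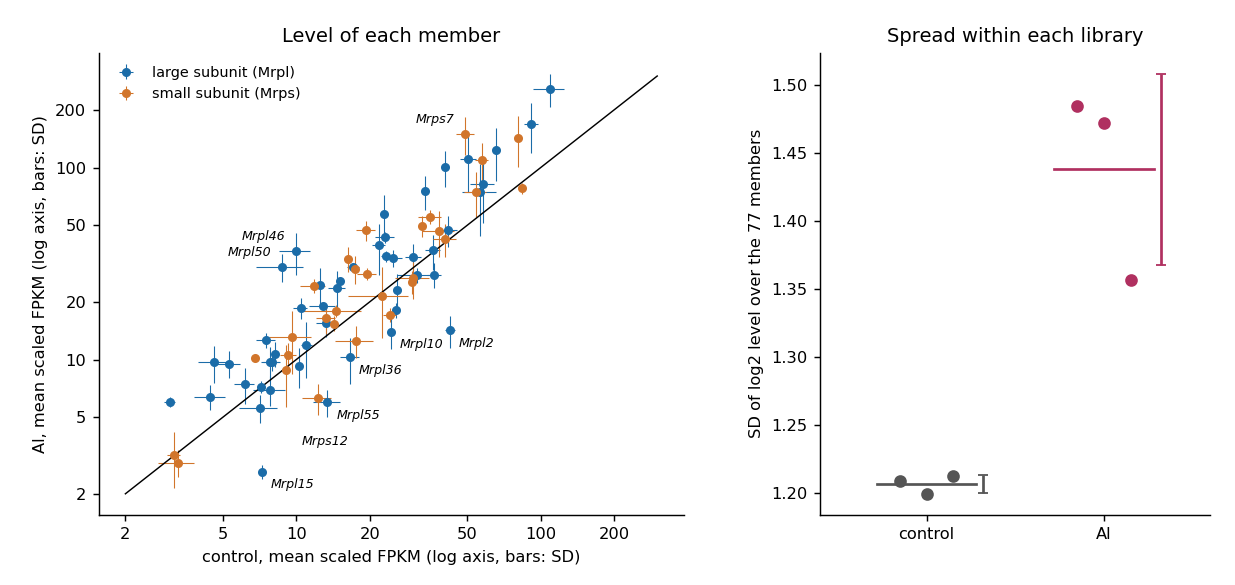
Left, mean scaled FPKM of each member under Al against control on log axes, with SDs over 3 libraries and the line of equality; right, the SD of the log2 level over the 77 members in each library, with group means and SDs. The 3 Al libraries lie between 1.36 and 1.48, above the control libraries at 1.20 to 1.21.

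The 2 subunits were then compared. Of the 48 Mrpl genes 20 rose and 5 fell, with a median log2 fold change of 0.43 and a range of -1.59 to 1.85. Of the 29 Mrps genes 10 rose and 1 fell, with a median of 0.30 and a range of -0.96 to 1.58. The shares called higher were 41.7% and 34.5%, and the interquartile ranges were -0.04 to 0.84 and -0.11 to 0.66, so the bulk of the 2 distributions overlapped. Relative to the other members, 10 Mrpl genes were higher and 8 lower, and 4 Mrps genes were higher and 3 lower. The difference of the medians was 0.13 and lay between 0.11 and 0.16 under every scaling, pseudocount and filter, with the replicate block, with voom and with each library left out but the control replicate 1, where it was 0.25.

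The summed FPKM of the Mrpl genes over that of the Mrps genes is free of scaling as well. It was 1.50, 1.50 and 1.51 in the control libraries and 1.66, 1.63 and 1.54 under Al. All Al libraries lay above all control libraries, and the means differed by 0.11. The sums are led by abundant members such as Mrpl12 and Mrpl28, so the ratio weighs those genes most. As a share of all summed FPKM, the members held 0.617% ± 0.019 in control and 0.533% ± 0.035 under Al (SD, n = 3 each), with no overlap. Mrpl went from 0.370% to 0.329% and Mrps from 0.247% to 0.204%. A common list of the 50 genes with the highest mean FPKM over all 6 libraries was then left out of the sum. The share was 0.752% in control and 0.778% under Al, the groups overlapped and the direction had turned.

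**Figure D4:**
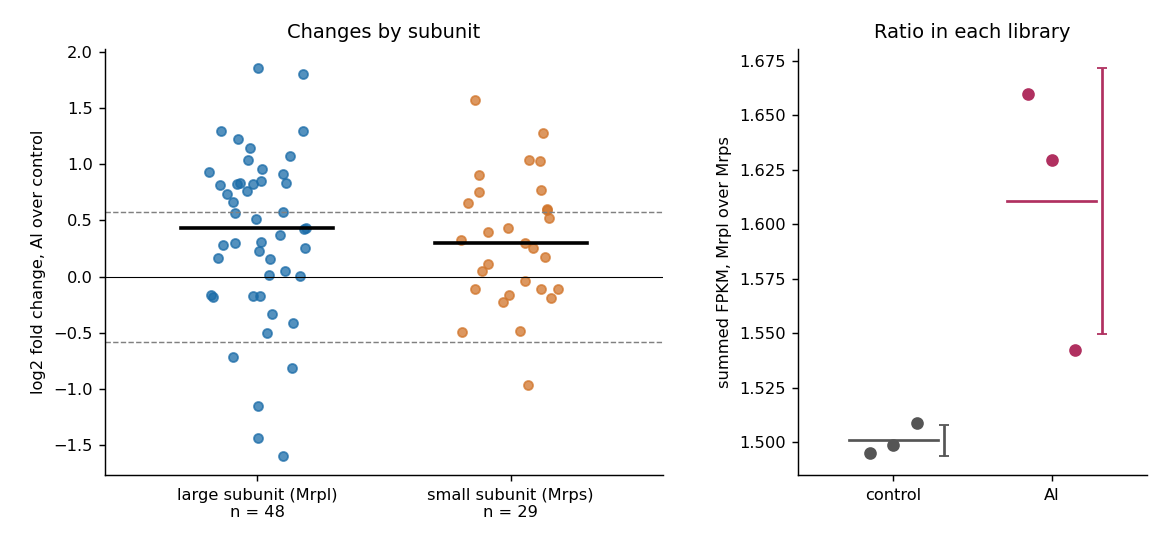
Left, log2 fold change of every Mrpl and Mrps gene, with black lines at the medians (0.43 and 0.30) and dashed lines at 0.58 in either direction; right, summed FPKM of Mrpl over Mrps in each library with group means and SDs (n = 3). The ratios of 1.54 to 1.66 under Al lie above those of 1.50 to 1.51 in control.

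Several members have a place or a role that the symbol does not tell. Mrps18 exists in 3 forms, of which Mrps18a sits in the large subunit. Mrps18a stood at 33.8, 32.4 and 39.5 scaled FPKM in control and at 60.6, 54.0 and 52.0 under Al and rose (0.66, SE 0.11, adjusted P = 0.00103 in limma). Mrps18b stood at 18.8, 18.1 and 21.5 against 26.7, 30.4 and 27.1 (0.53, below the fold change threshold), and Mrps18c at 32.3, 39.9 and 43.6 against 59.7, 46.7 and 34.2 (0.25, adjusted P = 0.291). The ratio of Mrps18a to Mrps18c was 0.922 ± 0.117 in control and 1.23 ± 0.26 under Al (SD, n = 3 each), and the groups overlapped (exact two-sided permutation P = 0.2). With 3 libraries against 3 this exact permutation test cannot go below P = 0.1, so no difference between Mrps18a and Mrps18c could have passed the threshold.

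Mrps36, now placed in the oxoglutarate dehydrogenase complex, stood at 13.8, 11.9 and 13.9 against 19.6, 15.3 and 14.3 (0.30, adjusted P = 0.0884). It has 4 near-identical copies among annotated genes, so its level is uncertain. Mrpl41, which has also been described as acting with p53, stood at 5.62, 7.87 and 7.74 against 5.79, 6.42 and 4.59 (-0.33, adjusted P = 0.136). The groups overlapped in Mrpl41 and did not in Mrps36, and neither gene was called.

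When Mrps30 and Mrps18a were counted with the large subunit and proteins with other symbols were added, the large subunit had 51 genes, 23 higher and 5 lower with a median of 0.51, and the small subunit had 31 genes, Mrps36 among them, 10 higher and 1 lower with a median of 0.30. Without Mrps36 it had 30 genes, 10 higher and 1 lower with a median of 0.29. Of the 5 proteins with other symbols, 3 rose and 0 fell, and their median was 0.89; on values scaled to the same sum 1 rose and 1 fell. Ptcd3, which lies where the mRNA enters the small subunit, rose most, from 10.6 ± 0.73 to 40.0 ± 0.86 scaled FPKM (SD, n = 3 each; log2 fold change 1.91, SE 0.09, adjusted P = 4.68e-06 in limma). Aurkaip1 of the small subunit and Gadd45gip1 of the large each rose by 0.89 on the log2 scale. Dap3 (0.36) and Chchd1 (0.08) were not called. Ict1, the older symbol of the hydrolase built into the large subunit as Mrpl58, went from 51.7 ± 2.09 to 22.8 ± 4.93 and was called lower (-1.20, SE 0.15, adjusted P = 0.000188). It was not among the members because of its symbol, and with it the large subunit had 23 genes higher and 6 lower.

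The change of a member was at most weakly related to its level or its length. Across the 77 members, Spearman's rho of the log2 fold change was 0.079 with the control level, -0.073 with the length behind the FPKM and -0.20 with the GC content of the longest coding transcript. Over all tested genes the values were -0.010, -0.16 and 0.027. These are descriptions across genes, which share the same 6 libraries. The 26 shortest members, of 412 to 1050 bases, had a median of 0.43, and the 25 longest, of 1701 to 7204 bases, one of 0.30.

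Several members start beside another gene that runs the other way, and these neighbours were examined after the values had been seen. In GENCODE M21 on GRCm38, 18 members had a protein-coding neighbour on the opposite strand whose start lay within 1000 bases upstream, at 26 to 935 bases, and both genes were tested. In 5 of these pairs both genes were called, and in all 5 they moved the same way. Higher were Mrpl50 with Zfp189 (1.8 and 1.6), Mrpl32 with Psma2, a proteasome subunit (0.66 and 1.20), and Mrps34 with Eme2 (0.60 and 1.80). The calls of Mrpl32 and Mrps34 were not kept under any other scaling, and both genes were below 0 on values scaled to the same sum (-0.12 and -0.18). Lower were Mrpl2 with Klc4, a kinesin light chain (-1.59 and -1.15), and Mrps12 with Sars2, the mitochondrial seryl-tRNA synthetase (-0.96 and -1.06). Mrpl50, Mrpl2 and Mrps12 were called in the same direction as their neighbours under each of the 4 other scalings. Both genes were called in 8 pairs on FPKM as deposited, of which 7 moved the same way and Mrpl30 and Mitd1 moved apart. On values scaled to the same sum it was 8 pairs, all 8 the same way. On these scales 41.3% and 52.2% of all tested genes were called lower, and pairs of all genes were not counted there. The counts were 3 pairs after quantile normalization and 5 relative to the other members, all the same way. The starts of Mrpl2 and Klc4 are 207 bases apart and those of Mrps12 and Sars2 172, within the printed windows.

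Over the 18 pairs Spearman's rho between the log2 fold changes of member and neighbour was 0.75, given as a description. The same search over all tested protein-coding genes found 592 pairs with a rho of 0.13, and of the 135 pairs with both genes called 81 moved the same way. Pairs whose starts overlap in GENCODE M21 were left out of both searches, among them Mrpl46 with Mrps11 (1.85 and -0.23). By the RefSeq start of Mrpl46 that pair is divergent. The pairs were not all alike: Mrpl30 was at 1.29 while its neighbour Mitd1, 66 bases away, was at -0.14. Mrpl57 was at 0.01 beside 1.35 in Ska3. Mrpl10 and Lrrc46 were at -0.81 and -0.94, of which only Mrpl10 was called.

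**Figure D5:**
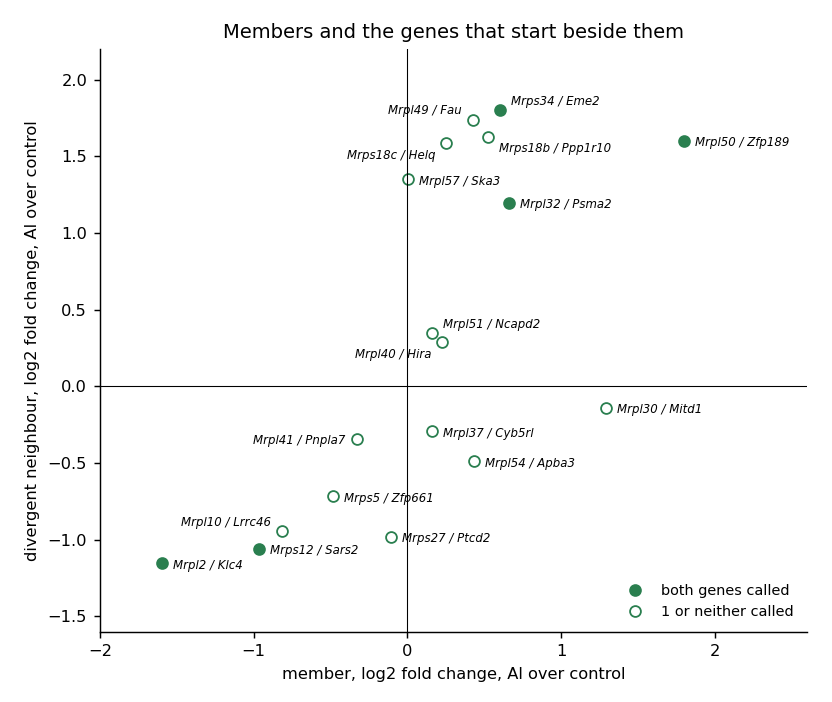
Log2 fold change of the 18 members with a divergent neighbour (horizontal) against that of the neighbour (vertical), Al over control; filled points are pairs with both genes called. The 5 filled points lie at the upper right and the lower left, and Mrpl30 with Mitd1 (1.29 and -0.14) lies off this diagonal.

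In GENCODE M21, Mrpl46 and Mrps11 make a pair of another kind, 1 gene of each subunit, on opposite strands of chromosome 7. Their starts overlap there by 173 exon bases. Mrpl46 lies at chr7:78775236-78783531 and Mrps11 at chr7:78783119-78792989. The RefSeq window printed for Mrpl46, chr7:78783040-78783339, puts the start of this gene at a lower position than that of Mrps11. By that start the genes are divergent and do not overlap, so the kind of pair depends on the annotation. While Mrpl46 rose by 1.85, Mrps11 stood at 30.1, 28.6 and 30.2 scaled FPKM in control and 25.4, 28.9 and 22.0 under Al (-0.23, adjusted P = 0.111 in limma). The ratio of Mrpl46 to Mrps11 was 0.279, 0.357 and 0.374 in control and 1.75, 1.35 and 1.22 under Al, so the order of the 2 genes was exchanged in every library. Reads from the shared bases could be counted for either gene.

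Factors that work with the ribosome were counted in the same way. Of 17 tested translation factors of mitochondria, 5 rose and 1 fell (29.4% and 5.88%, beside the 25.5% and 23.7% of all tested genes), with a median of 0.13; the counts were 2 and 6 on FPKM as deposited and 0 and 10 on values scaled to the same sum, where the calls of all tested genes moved down as well. The elongation factor Tufm (0.98), the release factor Mtrf1l (1.13) and the initiation factor Mtif3 (1.12) rose, and Mtfmt, which formylates the initiator methionine, went from 4.18 ± 0.41 to 0.629 ± 0.279 scaled FPKM (SD, n = 3 each; -2.62, SE 0.27, adjusted P = 7.46e-05 in limma). Of 25 tested assembly and RNA modification factors, 6 rose and 7 fell, which is close to the shares of all tested genes, with a median of 0.07; the counts were 4 and 11 on FPKM as deposited and 2 and 14 on values scaled to the same sum. C1qbp (1.50), Mettl17 (1.42) and Mrm2 (1.33) rose, while the GTPase Mtg1 (-1.86), the methyltransferase Tfb1m (-1.67) and Mrm1 (-1.30) fell. On FPKM as deposited the medians of the lists were -0.35 and -0.41, beside -0.43 for all tested genes.

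The proteins of the cytosolic ribosome behaved more uniformly. All 81 of their genes rose, from 0.90 to 2.79 with a median of 1.64. The SD of the log2 fold change over genes was 0.24, beside 0.69 over the 77 mitochondrial members and 1.02 over all tested genes. Many cytosolic ribosomal protein genes have near-identical pseudogene copies, so single values there are uncertain. Their median was above 0 under each of the scalings tried, with 0.38 as the lowest after quantile normalization, where 22 of the 81 were called, beside 21.5% of all tested genes higher and 23.3% lower. The median of the mitochondrial members was -0.11 on FPKM as deposited and -0.40 on values scaled to the same sum, beside -0.43 and -0.72 for all tested genes.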

How the data were processed

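RNA-seq values of the 6 input libraries of HT22 cells were used as deposited, in 1 table of FPKM per gene symbol and library. The authors' methods name Trimmomatic, SortMeRNA and HISAT2 on GRCm38/mm10, the submitters' processing notes fastp, HISAT2, HTSeq and GRCm39, and the series text another genome; the strand setting of the counting is not given in the sources used here, although the kit was stranded. DESeq2, which the authors used, needs counts and was not run.

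FPKM were divided by median-of-ratios size factors, from genes averaging 1 FPKM or more and never at 0. Genes averaging 0.1 FPKM or more (12889) were tested on log2(scaled FPKM + 0.1) with limma 3.58.1 in R 4.3.3 (lmFit, eBayes with trend). Calls needed a Benjamini-Hochberg adjusted P under 0.05 over all tested genes and an absolute log2 fold change over 0.58, the fold threshold of the study. Fold changes are on this scale, which understates those of low genes. The series text calls the libraries biological replicates without naming separate cultures, so P values measure the spread between these libraries. Whole reads were recovered from the FPKM steps for 17687 of the 17688 genes above 0 (largest relative error of a rebuilt value 2.11e-10), and limma voom on them called 3334 genes higher and 3021 lower, beside 3291 and 3053. Replicate numbers did not pair the libraries, as the deviations of same-numbered libraries correlated at -0.033, -0.026 and -0.073. The procedures were tested on simulated data.

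Gene positions and overlaps came from GENCODE M21 on GRCm38 and promoter windows from RefSeq (68 members matched). Near-identical copies, of at least 95% identity over 200 bases, were sought with minimap2 2.31-r1302; 43 members had a copy or an exon overlap. Python 3.11.15, pandas 2.3.3, numpy 2.4.6 and matplotlib 3.10.9 were used.

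Members, gene lists, markers and alternatives were chosen with earlier results of these data known. Values in every library were given for all members called lower, the 12 largest increases among those called, the 5 of highest mean FPKM, the 8 farthest each way relative to the other members, and members with another role or an unsure place; of other lists, the 3 largest called changes each way. Mrps6, Mrps11 and Ict1 were named after their values were seen. The immunoprecipitated libraries were not analysed here.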

Additional observations from a re-analysis of the deposited data

How the results depend on the processing

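The calls of the members depended mainly on the scaling between libraries. The counts called higher and lower were 9 and 20 on FPKM as deposited, 3 and 30 on values scaled to the same sum (TPM), 14 and 11 relative to the other members, and 10 lower (21 higher) after quantile normalization, against 30 and 6. All tested genes moved too, from 25.5% higher and 23.7% lower to 13.5% and 41.3% on FPKM as deposited and 8.85% and 52.2% on TPM. By subunit, Mrpl had 7 and 12 on FPKM as deposited, 2 and 17 on TPM and 10 and 8 relative to the members, and Mrps had 2 and 8, 1 and 13, 4 and 3, and 6 and 3 after quantile normalization. The median of the members was -0.11, -0.40 and 0.032 on the first 3 of these scales, beside -0.43, -0.72 and -0.30 for all tested genes; the last of the members' values is near 0 by construction, since that scale centres the members. Mrpl46, Mrpl50 and Mrps7 were called higher and Mrpl2, Mrpl10, Mrpl15, Mrpl55 and Mrps12 lower in all 18 fits of the members, and Mrpl36 in all but that without the Al replicate 3. With no fold change minimum 36 members were higher and 10 lower, 3 of the latter Mrps. Dropping the minimum added 10 of the 77 members to the calls and 1665 of the 12889 tested genes. The study's unadjusted P left the counts at 30 and 6. Among the 34 members with no copy and no overlap 11 were higher and 4 lower. These are 32.4% and 11.8%, beside 39.0% and 7.79% of all 77 members and the shares of all tested genes given above.

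Leaving out 1 library gave 28 to 36 members higher and 5 to 7 lower (beside 23.4% to 26.7% and 21.5% to 25.1% of all tested genes), medians of 0.28 to 0.48, and 1 to 2 Mrps genes lower, the 2 without control replicate 1 or Al replicate 1. The difference of the subunit medians ranged from 0.12 to 0.25, the latter without control replicate 1. It was 0.21 with Mrps30 and Mrps18a counted as large and the other symbols added, Mrps36 still counted as small, and 0.17 with Ict1 added to these. With the replicate number as a block 30 members were higher and 6 lower; the numbers share no more than a label, and the block changed no call named here. The share of the summed FPKM held by the members, Al minus control, was -0.084 percentage points. It turned to 0.025 without the 50 genes of highest mean FPKM over all 6 libraries.

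Each member's value shifted by nearly the same amount, -0.79 to -0.76 on TPM, -0.49 to -0.47 on FPKM as deposited and -0.35 to -0.34 relative to the members, so that members with a smaller increase changed sign. Of the 77 members, 33 changed sign on TPM, 21 on FPKM as deposited, 10 after quantile normalization and 16 relative to the members. On TPM 8 members called higher were among them: Mrps21 (-0.017), Mrps18a (-0.13), Mrpl9 (-0.024), Mrpl22 (-0.043), Mrpl32 (-0.12), Mrps23 (-0.029), Mrps31 (-0.19) and Mrps34 (-0.18). Among the other genes that the naming rule chose, the sign changed on TPM for Mrps18b (-0.26), Mrps18c (-0.53), Mrps36 (-0.48), Dap3 (-0.42) and Chchd1 (-0.70), and on FPKM as deposited for Mrps18c (-0.23), Mrps36 (-0.19), Dap3 (-0.13) and Chchd1 (-0.40). After quantile normalization it held for Mrps18c (-0.090) and Chchd1 (-0.18), relative to the members for Mrps18c (-0.092), Mrps36 (-0.046) and Chchd1 (-0.26), and for Chchd1 without control replicate 1 (-0.065) or Al replicate 1 (-0.028). The cause of the changes after quantile normalization, where members shifted by -0.68 to 0.32, and without single libraries was not tested. The 3 libraries a group and the unequal depth limit single members such as Mrps12, with 84 to 102 reads under Al.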
